A study of Mus musculus with 15 samples.

Results

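Psme3, Ube2d3 and Trim26 encode proteins of the ubiquitin and proteasome system, and each has 1 cassette exon in the authors' deposited table of exons that differ between wild-type (WT) and Mbnl3 mutant mouse forelimb. A cassette exon is an exon that can be included in the mRNA or skipped. The events were taken by gene symbol, which gave 3 of the 98 listed events. The genes were selected on the inclusion values and p-values of that table, so inclusion is given here as a description with no test. The forelimbs came from embryos at 15 days post coitum, either WT or homozygous for the Mbnl3 ΔE2 allele, which the sample titles call a knockout (KO) and the series title an isoform knockout. RNA-seq used 3 WT and 3 ΔE2/ΔE2 female animals. HITS-CLIP, which sequences the short pieces of RNA (tags) that ultraviolet light has fixed to a protein and an antibody has pulled down, used an anti-Mbnl3 antibody on 3 WT and 3 ΔE2/ΔE2 forelimb samples of the BL6 strain, each pooling 4 forelimbs of 2 embryos. It was also done on 3 samples of C2C12, a mouse myoblast line of WT genotype grown in medium with 20% serum. A header of the exon table names Mbnl2 for the mutant, although the sample titles name Mbnl3, so that column is called the knockout column. The table pools the animals of a genotype into 1 total, and no spread between animals can be given for inclusion.

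Proteins are marked for destruction by the attachment of ubiquitin, which an activating enzyme (E1) passes to a conjugating enzyme (E2) and from there, with a ligase (E3), to the target. Chains of ubiquitin lead the target to the proteasome, whose core opens when a regulatory particle binds its end. Muscleblind proteins such as Mbnl3 bind RNA and promote the inclusion or the skipping of exons depending on where they bind.

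The CLIP libraries held 35413 to 124309 tags in WT and 40531 to 67279 in ΔE2, where a tag is 1 combination of position, strand and 5-base barcode (a molecule). ΔE2 replicates 2 and 3 shared 33916 molecules, 83.7% and 57.4% of their tags, and are treated here as a single library with 65730 tags, so that comparisons set 3 WT against 2 ΔE2 libraries. Sharing went beyond that pair and across genotypes: 84092 of the 296804 molecules stood in more than 1 forelimb library, and each library shared from 34.3% to 86.9% of its tags. The C2C12 libraries were combined by the authors and held 550124 molecules. Of 13 markers of muscle, cartilage and skin that were looked for, only Dysf, Col2a1, Col11a2 and Acan are among the genes of the exon table, which lists changed exons and no expression levels, so the tissue label was not checked further. In bulk tissue, fewer cells of a type and less RNA per cell cannot be told apart.

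The 3 exons differed in direction and in what made up the difference. In the knockout column, the exons of Psme3 and Trim26 were included more and that of Ube2d3 less. In tag totals not scaled for depth, Psme3 and Trim26 differed in tags across the inclusion junctions, with skipping tags near equal in both groups. Ube2d3 differed mostly in tags across the skipping junction. The knockout column held more tags in all. Summed over the 98 events, its junction tags were 1.71 times those of WT, and the median event had a ratio of 1.67 (quartiles 1.46 and 1.94). Skipping tags summed over these events had a ratio of 1.61. The skipping ratios of Psme3 (1.08) and Trim26 (0.920) lay below it, so relative to that sum both also had fewer skipping tags. The smallest change listed is 10.1 percentage points and the highest adjusted p 0.0498 in the authors' deposited table, whose ranks and p-values imply about 2834 events tested, of which 98 (3.46%) are listed. In size of change the members ranked 26th (Psme3), 6th (Ube2d3) and 4th (Trim26) of the 98, beside a median absolute change of 15.5 percentage points.

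Psme3 encodes PA28γ (REGγ), a nuclear proteasome activator that opens the core particle without needing ubiquitin or ATP. Its cassette exon (gene ID 19192) lies on the plus strand of chromosome 11 within the event span from 101177565 to 101178526 in the mm9 build, which runs from the upstream to the downstream flanking exon. The exon is 75 nt long, a multiple of 3. The introns beside it are 532 nt and 85 nt long. In WT, the authors' table gave 1.20 estimated tags on the first inclusion junction, 0.204 on the second and 376 on the skipping junction. In the knockout column it gave 116, 122 and 407 tags. Inclusion was thus 0.187% in WT (95% Wilson interval 0.0468% to 1.49%) and 22.6% in the knockout column (19.3% to 26.4%), intervals that cover counting error only and hold no spread between animals. The exon was at the edge of detection in WT, where only 1 other listed event, of Clta, had an inclusion below 1%. In the knockout column both of its junctions were present in near equal number, with 48.7% of inclusion tags on the first (42.5% to 55.1%). Skipping tags were 1.08 times those of WT, within the quartiles of 0.952 and 2.42 over the listed events, of which 61 had a higher ratio.

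Ube2d3 encodes UbcH5c, an E2 enzyme that works with many E3 ligases and acts in the early steps of chain building. Its cassette exon (gene ID 66105) lies on the plus strand of chromosome 3 within the span from 135125914 to 135129021. With 50 nt it is the only member whose length is not a multiple of 3 (remainder 2), so forms with and without it would differ in reading frame if the exon is coding, which was not analysed here for any of the 3. WT had 12.04 and 13.04 tags on the inclusion junctions and 8.03 on the skipping junction. The knockout column had 17.2, 30.2 and 67.0. Inclusion was 61.0% in WT (95% Wilson interval 40.9% to 79.2%) and 26.1% in the knockout column (18.4% to 36.3%). Skipping tags were 8.34 times those of WT, where 6 of the 98 events had a higher ratio. Inclusion tags were 1.89 times those of WT, close to the ratio of 1.76 for inclusion tags summed over all listed events. All junction tags of the event together were 3.45 times those of WT, a ratio that 3 of the 98 events exceeded. WT inclusion rests on 33.1 junction tags, the fewest of the 3 genes.

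Trim26 encodes an E3 ligase of the tripartite motif family, which carries a RING domain. Its cassette exon (gene ID 22670) lies on the plus strand of chromosome 17 within the span from 36989408 to 36993168. At 18 nt, also a multiple of 3, it is a very short exon, and 1 of the 98 listed exons is shorter. The introns on its sides are 1590 nt and 1900 nt long. WT had 20.1 and 7.11 tags on the inclusion junctions and 36.9 on the skipping junction, and the knockout column 78.0, 55.0 and 34.0. Inclusion was 26.9% in WT (95% Wilson interval 17.1% to 40.9%) and 66.2% in the knockout column (56.7% to 74.8%). Skipping tags were 0.920 times those of WT, with a higher ratio in 75 of the 98 events, and inclusion tags 4.89 times, a ratio exceeded by 5 of the 98 events. The inclusion isoform total exceeds the sum of both inclusion junctions by 7 tags in each group, and where these tags lie is not stated. With those tags counted, inclusion was 31.7% in WT and 67.3% in the knockout column.

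**Figure D1:**
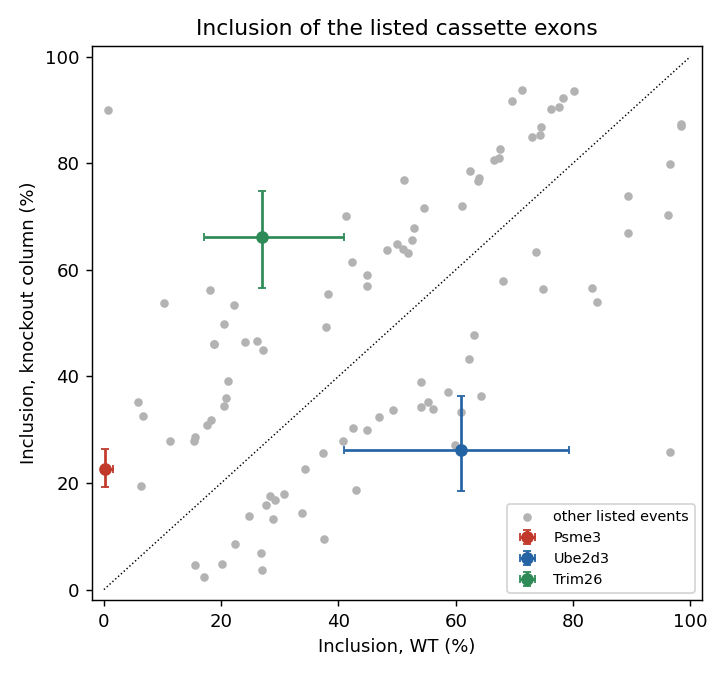
Inclusion of each listed cassette exon in WT (horizontal axis, percent) and in the knockout column (vertical axis, percent), 1 point per event, with the dotted line marking equal inclusion. Psme3 and Trim26 lie above the line and Ube2d3 below it. Bars on these 3 are 95% Wilson intervals of the pooled tags.

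**Figure D2:**
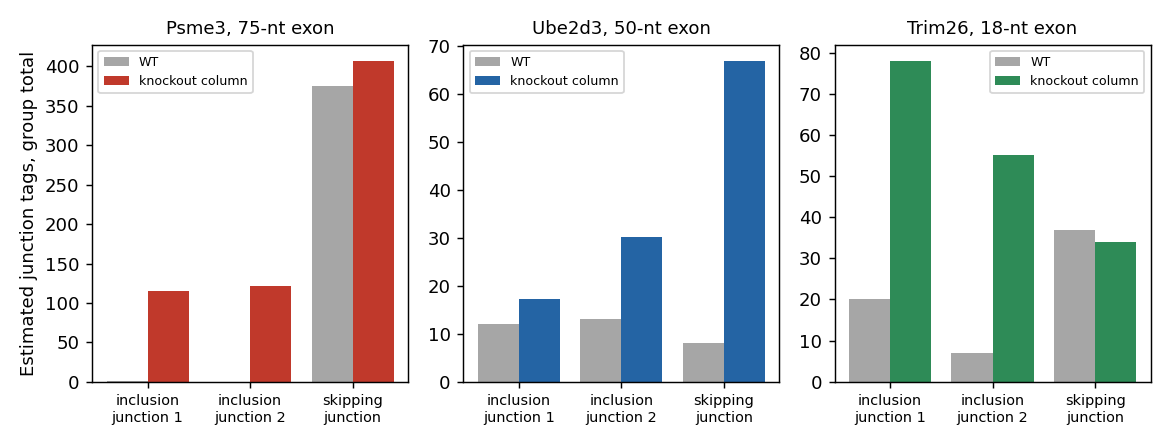
Estimated tags on the first and second inclusion junctions and on the skipping junction, as 1 total per group with no replicate error, for Psme3, Ube2d3 and Trim26. Grey bars are WT and coloured bars the knockout column, and the vertical scale differs between panels. Skipping tags, not scaled for depth, are 376 and 407 for Psme3 and 36.9 and 34.0 for Trim26, but 8.03 and 67.0 for Ube2d3.

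An included exon has 2 junctions, and the share of its inclusion tags on the first shows whether both sides were read alike. Over the events with at least 10 inclusion tags, the median share was 50.0% in WT (91 events, quartiles 35.5% and 57.2%) and 49.4% in the knockout column (94 events, quartiles 34.5% and 60.7%). The Ube2d3 exon had 48.0% in WT (95% Wilson interval 30.0% to 66.5%) and 36.3% in the knockout column (23.97% to 50.5%). The Trim26 exon leaned to its first junction in both groups, with 73.9% in WT (55.3% to 86.8%) and 58.6% in the knockout column (50.1% to 66.7%). In WT, 12 of the 91 events had a higher share than Trim26. In the knockout column 27 of the 94 did, and the Trim26 share lay within the quartiles. Inclusion of Trim26 from the first junction alone was 35.3% in WT and 69.7% in the knockout column, and from the second alone 16.1% and 61.8%. For Ube2d3 these were 60.0% and 20.4% from the first junction, and 61.9% and 31.1% from the second. The direction of the difference was the same from either junction for all 3 exons, and the difference ranged from 21.8 to 22.96 percentage points for Psme3, from -39.6 to -30.8 for Ube2d3 and from 34.4 to 45.7 for Trim26. In Psme3, the WT share rests on 1.41 tags and says nothing about balance.

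By exon length, Psme3 and Trim26 belong to the 59 of 98 listed events (60.2%) whose exon is a multiple of 3, and Ube2d3 to the 16 with remainder 2. The listed exons ran from 16 to 759 nt with a median of 80.5 nt, and 44 were shorter than that of Psme3 and 23 shorter than that of Ube2d3. The events of other genes with the most similar pair of inclusion values, by Euclidean distance over the WT total and the knockout total, were these. For Psme3 they were Def8 (6.29% in WT and 19.4% in the knockout column, a distance of 6.89 percentage points), Armcx1 at 11.8 and Ep400 at 12.3. For Ube2d3, Cobl, an actin nucleator, was nearest at 1.498 percentage points (59.9% and 27.2%), then 2210018M11Rik at 7.27 and Ss18 at 9.18. For Trim26, Slc9a5, a sodium-proton exchanger, was at 13.2 (18.2% and 56.3%), Top3b, a topoisomerase, at 13.7 and 5730419I09Rik at 14.9. Psme3 and Trim26 had no close neighbour of the kind that Ube2d3 had in Cobl.

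Lists of 52 proteasome genes, 47 genes of ubiquitin activation and conjugation, 371 ubiquitin ligase genes and 84 deubiquitinase genes, 554 in all, were searched in the table. They had 4 events, 3 with higher and 1 with lower inclusion in the knockout column, beside 53 higher and 45 lower among all 98 listed. Besides the 3 members there was only Itch, an E3 ligase of the HECT class, and no deubiquitinase was listed. The Itch exon of 202 nt (remainder 1) had 20.8% inclusion in WT and 36.0% in the knockout column. Its inclusion junctions had 20.1 and 15.1 tags in WT and 62.1 and 32.1 in the knockout column, and its skipping junction 66.9 and 83.9. How many of the 554 genes had an event that was tested is not known, so no share can be set beside these counts. Rad18, a ubiquitin ligase of DNA damage tolerance that the lists missed and that was singled out after its values were seen, had 21.1% inclusion in WT and 39.2% in the knockout column.

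The CLIP data asked whether Mbnl3 antibody tags lay at these exons. Tags were few. Within the event spans, on the strand of the gene, the 6 forelimb libraries held 0 tags for Psme3, 4 for Ube2d3 and 5 for Trim26. The median over the 88 different spans of the table was 4 tags, and 21 spans had none. No member reached the minimum of 10 tags for a test, which 21 spans did. Of these, 0 (0.0%) differed between ΔE2 and WT in edgeR after adjustment, with 2 at an unadjusted p under 0.05, and DESeq2 also called 0.

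No forelimb library had a tag in the Psme3 span, where a count of 0 allows up to 24.1 tags per 1000000 of the library in the deepest WT library and up to 84.7 in the shallowest (3 counts, counting error only). C2C12 had 3 molecules there, or 5.45 per 1000000 (95% exact Clopper-Pearson interval 1.12 to 15.9), a level below what the forelimb libraries could show. The depth of the forelimb data therefore does not tell the tissue and the cells apart at this exon.

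The 4 Ube2d3 tags were 0, 1 and 2 in WT replicates 1, 2 and 3, and 1, 0 and 0 in ΔE2 replicates 1, 2 and 3. They came from 2 molecules. A molecule from base 836 to base 870 of the span had 1 read in WT replicate 2, 5 in WT replicate 3 and 1 in ΔE2 replicate 1, with the same barcode in all 3 libraries. The other, from base 1285 to 1316, had 1 read in WT replicate 3. Neither can be placed in exon or intron, because the table gives the lengths of the flanking exons only as a sum of 957 nt. C2C12 had 23 molecules in the same span, or 41.8 per 1000000 (26.5 to 62.7), and 9 of the 88 spans had more. Tags in the 3 WT forelimb libraries came to 9.86 ± 8.64 per 1000000 (SD, n = 3), which overlapped with 7.43 ± 10.5 (SD, n = 2) in ΔE2. C2C12 is 1 combined set with tags of another length range, so its level was not tested against forelimb.

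The 5 Trim26 tags were 0, 1 and 3 in the WT replicates and 1, 0 and 0 in the ΔE2 replicates, from 4 molecules. A molecule from base 720 to 754 of the span lay in the upstream intron and had 35 reads in WT replicate 3. Molecules from 3185 to 3219 and from 3415 to 3438 lay in the downstream intron, the former with 1 read in ΔE2 replicate 1 and the latter with 14 in WT replicate 3. The last, from 3533 to 3567, had 293 reads in WT replicate 2 and 2 reads with the same barcode in WT replicate 3, and it may reach the downstream flanking exon. No molecule was common to both genotypes. WT levels of 12.5 ± 12.1 per 1000000 (SD, n = 3) overlapped with ΔE2 levels of 7.43 ± 10.5 (SD, n = 2). C2C12 had 6 molecules in this span, or 10.9 per 1000000 (4.003 to 23.7).

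**Figure D3:**
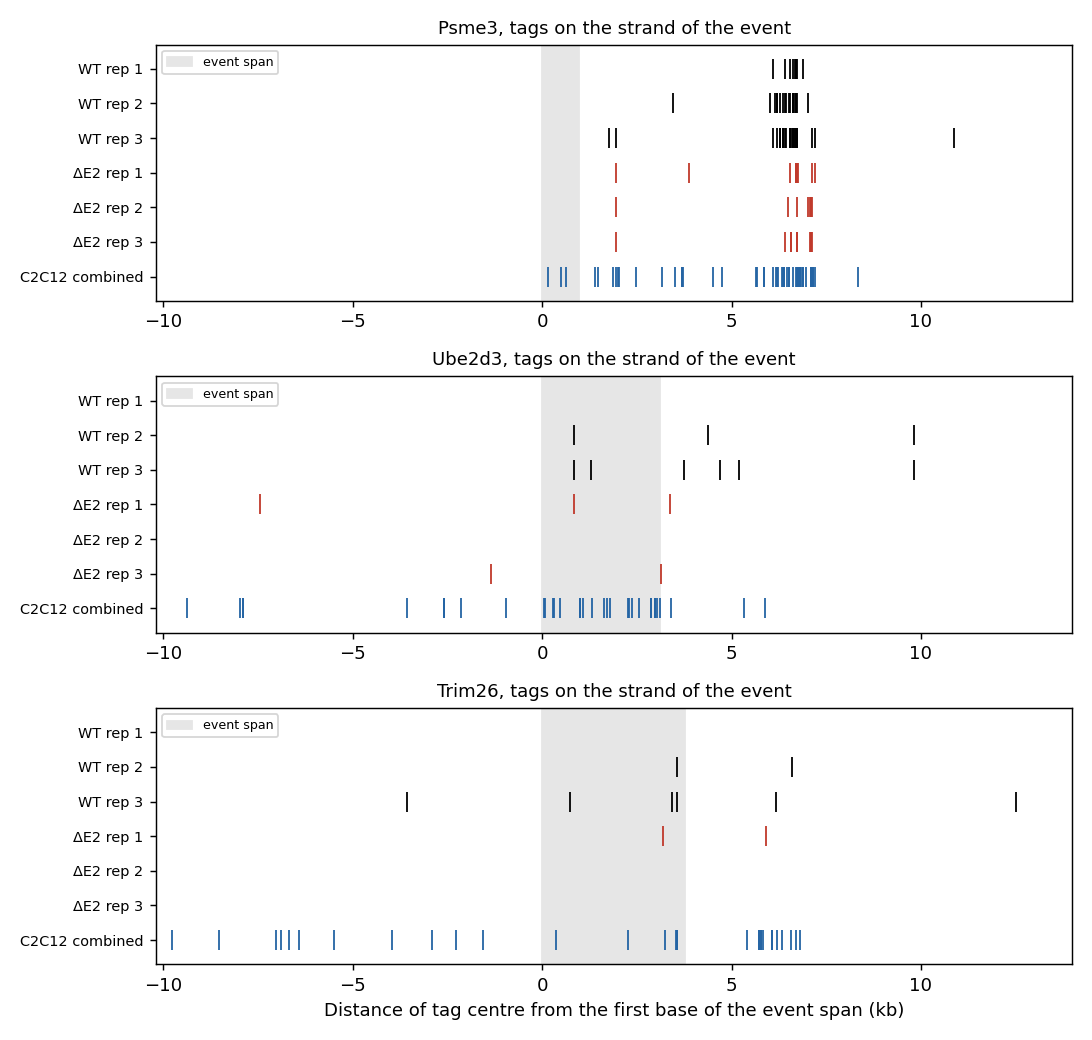
Centres of CLIP tags on the strand of the event, by distance in kb from the first base of the event span (grey), for each forelimb library and the combined C2C12 set. Each mark is 1 tag within 10 kb of the span, and marks at the same place in several libraries are often the same molecule. The Psme3 span holds no forelimb tag, while tags gather between 5990 and 7212 nt from its start, and C2C12 tags run through the Ube2d3 span.

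Tags within 10000 nt of the spans were then counted, a window chosen after it was seen that the spans held too few. All 3 genes passed the minimum in this window. On the opposite strand, 0 forelimb molecules lay within 10000 nt of any of the 3 spans. Of 60 windows tested, 1 (1.67%) differed between the genotypes in edgeR, with 6 at an unadjusted p under 0.05, and it was none of the members. That call, at Fgfr2, ended in edgeR without WT replicate 1, 2 or 3, without ΔE2 replicate 3, with TMM scaling, with WT replicates 2 and 3 as 1 library and with each molecule given to 1 library. It was also absent in DESeq2, and without ΔE2 replicate 1 the count was 2.

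Near Psme3, WT replicates 1, 2 and 3 had 8, 19 and 30 tags, or 226, 256 and 241 per 1000000 tags of the library. ΔE2 replicate 1 had 10 tags, or 149 per 1000000, and replicates 2 and 3 together had 12, or 183. Both ΔE2 values lay below the 3 WT values. How many of the other windows tested separate in this way was not counted, so the separation is not shown to be particular to Psme3. Means of 241 ± 15.2 per 1000000 (SD, n = 3) for WT stood against 166 ± 23.99 (SD, n = 2) for ΔE2, and the two-sided exact permutation p was 0.1, the smallest that this design can give. In edgeR the log2 fold of ΔE2 over WT was -0.55 ± 0.32 (standard error), and its adjusted p of 0.564 missed the threshold. DESeq2 by library size gave the same log2 fold with a wider standard error of 0.77 (DESeq2 adjusted p = 0.972). The groups overlapped once each shared molecule was assigned to 1 library. Of the 58 molecules in the window, 19 stood in more than 1 library and 7 in both genotypes. With each molecule given to the library that held most of its reads, WT replicates 1, 2 and 3 had 158, 249 and 239 per 1000000 and the ΔE2 libraries 81.6 and 178, which overlap. The log2 fold in that fit was -0.76 (edgeR adjusted p = 0.408), further from 0 than with all tags, and also short of the threshold.

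Of these 58 molecules, 52 lay in a stretch of 1223 nt that begins 5028 nt after the end of the Psme3 span, on chromosome 11 from 101183554 to 101184776. The stretch was marked out after its tags were seen. Its tags numbered 8, 18 and 27 in WT and 8, 6 and 9 in ΔE2, so every forelimb library had tags there. C2C12 had 32 molecules in the same stretch, of 55 within 10000 nt of the span. No gene is assigned to these tags, since no mm9 annotation was used here. RefSeq's table of GRCm38.p6 lists Aoc2 as the neighbour of Psme3 on that side, so they may belong to either gene.

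Near Ube2d3, the WT replicates had 0, 3 and 6 tags, or 0, 40.5 and 48.3 per 1000000, and the ΔE2 libraries 3 and 2, or 44.6 and 30.4. The genotypes overlapped. In edgeR the log2 fold was -0.03 ± 0.88 (standard error; adjusted p = 0.987), while the mean per 1000000 was higher in ΔE2, at 37.5 ± 10.0 (SD, n = 2) against 29.6 ± 25.9 in WT (SD, n = 3). C2C12 had 36 molecules, or 65.4 per 1000000 (45.8 to 90.6).

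Near Trim26, the WT replicates had 0, 2 and 6 tags, or 0, 26.98 and 48.3 per 1000000, and the ΔE2 libraries 2 and 0, or 29.7 and 0. In edgeR the log2 fold was -1.10 ± 1.05 (standard error; adjusted p = 0.684), and the values overlapped. C2C12 had 31 molecules there, or 56.4 per 1000000 (38.3 to 80.0). No forelimb library had over 6 tags near Ube2d3 or Trim26.

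**Figure D4:**
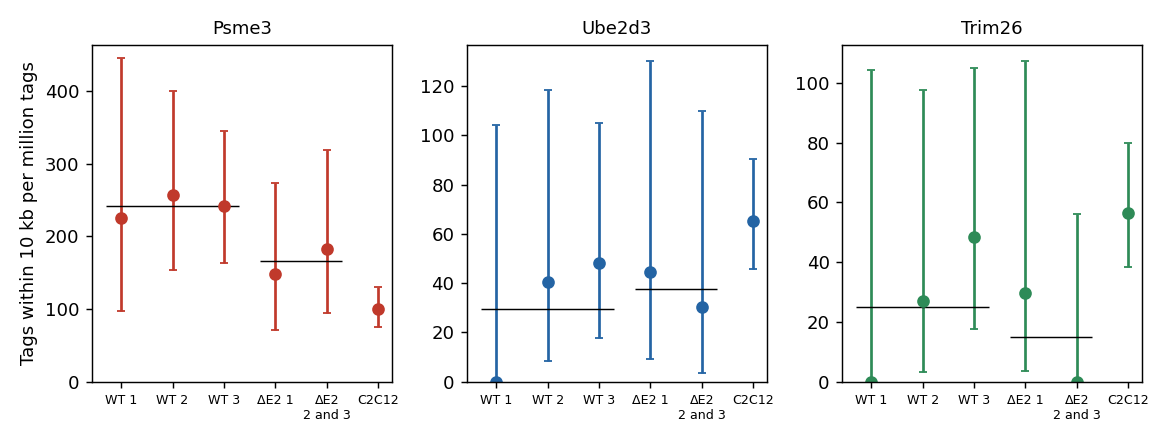
CLIP tags within 10 kb of each event span, on its strand, per 1000000 tags of the library. Points are libraries with 95% exact Clopper-Pearson intervals (counting error only), short lines are the means of 3 WT and 2 ΔE2 libraries, and C2C12 is 1 combined set. Of these 3 genes, only for Psme3 do both ΔE2 points lie below all WT points, at 149 and 183 against 226 to 256, and their intervals overlap. How many other windows separate in this way was not counted.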

How the data were processed

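Per the submitters' processing notes, TopHat 1.3.2 with Bowtie placed the RNA-seq reads on mm9, as Novoalign did the CLIP reads. No source used here names the junction counter. The deposited exon table holds estimated counts of tags per isoform and junction, pooled per genotype, with an odds ratio, a Fisher p-value, its adjusted p-value and a rank score by p, per the file headers. From the deposited junction columns, the listed change in inclusion was reproduced here within 0.0005 for 98 of 98 events. Exon and intron lengths come from the offsets in the event names. Deposited CLIP files hold 1 tag per line with a score whose meaning is not stated and which was not used. No 2 tags of a forelimb file share position, strand and barcode, and repeats in the C2C12 file (677787 lines) were counted once.

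Inclusion is the mean of both inclusion junctions over that mean plus the skipping tags. Wilson intervals used tags rounded to whole numbers. CLIP tags that overlapped a span by at least 1 nt on its strand were counted for all 88 different spans. Spans with at least 10 tags were tested in edgeR 4.0.16 (R 4.3.3, quasi-likelihood test, all tags of the library as library size, a p of 0.05 or less after Benjamini-Hochberg adjustment). The standard error is the log2 fold over the square root of F. Levels were also compared by a two-sided exact permutation test. DESeq2 1.42.0 was an alternative. Python 3.11.15 (scipy 1.17.1, pandas 2.3.3, numpy 2.4.6) did the counting and matplotlib 3.10.9 the figures. The fit was tested on simulated counts for ΔE2 against WT within 10000 nt, on 60 windows with 20 changed. It recovered 1 of 20 changed 2-fold (53 windows tested) and 8 of 20 changed 4-fold (54 tested), with 0 false calls. The simulated libraries were independent, with the fitted common dispersion of 9.8e-05, which adds hardly any spread beyond counting error. The real libraries share molecules and may vary more, so the recovery and the count of false calls may not hold for them. The members, lists and tests were chosen with earlier results of these data known. Named genes are the members, the 3 events nearest to each in inclusion, and listed events of the ubiquitin and proteasome lists. Other genes named (Clta, Rad18, Fgfr2, the tissue markers and the neighbour Aoc2) were outside this rule, and Clta, Rad18, Fgfr2 and Aoc2 were singled out after values were seen. The p-values measure the spread between pooled samples labelled as biological replicates that share molecules.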

Additional observations from a re-analysis of the deposited data

How the results depend on the processing

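The inclusion of all 3 exons kept its direction from the first junction alone, the second junction alone and the isoform totals. Only the second junction of Trim26 in WT, at 16.1%, left the interval of the value reported. Widening the spans by 1000 nt left the tag counts of the members within their counting intervals. In the event spans, the count of calls was 0 under 15 of 16 alternatives (edgeR or DESeq2; from 0 to 5 at an unadjusted p under 0.05), and 1, at Fgfr2, with the 6 libraries as labelled and a replicate block. Within 10000 nt it was 1, and 0 with TMM scaling, with DESeq2 by library size or its own size factors, with WT replicates 2 and 3 counted as 1 library and with molecules given to the library with most reads. It ran from 0 to 2 when 1 library was left out, and no member was called in any fit. The sample titles do not say whether same-numbered WT and ΔE2 libraries were processed together. Their deviations from the group means correlated at -0.26, -0.02 and -0.37 over 63 windows, and with the replicate block 1 window was called. These correlations show no pairing but cannot exclude it, since libraries are few and ΔE2 replicates 2 and 3 share molecules. With ΔE2 replicate 1 left out, the other ΔE2 library is assumed to vary like the WT libraries. The log2 fold near Psme3 ran from -0.76 to -0.41 over 15 alternatives (adjusted p from 0.383 to 0.972) and that near Trim26 from -1.38 to -0.82 over 10. Near Ube2d3 it changed sign, at 0.10 and 0.15 with DESeq2 by library size and by its own size factors, 0.17 with WT replicates 2 and 3 as 1 library, 0.0064 with a window of 5000 nt, and from -0.443 to 0.038 when 1 library was left out (0.013 without WT replicate 2, 0.038 without ΔE2 replicate 2). The cause was not tested, and none of these passed the threshold. Of 16 alternatives, 6 left Trim26 with too few tags to test, and 1 each left Psme3 and Ube2d3 so.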
